A study of Mus musculus with 14 samples.

Results

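Astrocytes in a healthy brain express a set of genes for their resting duties, and 10 of them were examined here: Slc1a2, Slc1a3, Glul, Slc7a10, Gja1, Gjb6, Aqp4, Aldh1l1, Sox9 and S100b. The members were picked by name, and all 10 were present among the 43346 genes of the deposited table. All 10 passed the filter on low values in each comparison, with 2336 to 309278 reads for each gene in each mouse.

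RNA-seq was performed on brain tissue of 14 female mice aged 23 months, from a cross-section with hippocampus and cortex. NTG mice (wild type, non-transgenic; n = 4, mice 7 to 10) and APP/PS1 mice (genotype +/+; n = 5, mice 16 to 20) were compared with APP/PS1 mice given CP2 (n = 5, mice 21 to 25), a small molecule that inhibits mitochondrial complex I. APP/PS1 mice carry familial Alzheimer's disease mutations in APP and PS1, and the strain of all 3 groups is labelled C57BL/6;SJL-Tg. CP2 was given at 25 mg/kg/day in drinking water with 0.1% PEG from 9 months of age. By the paper's account the NTG mice and the APP/PS1 mice without CP2 received vehicle, water with 0.1% PEG, from the same age. The APP/PS1 mice without CP2 carry the label non-treated. The promoters that drive the transgenes are not given in the sources used here, and the comparisons hold no NTG mice with CP2.

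Astrocytes take up glutamate released at synapses through the transporters encoded by Slc1a2 and Slc1a3 and turn it into glutamine with glutamine synthetase, encoded by Glul. They couple to each other through gap junctions and wrap blood vessels with endfeet that hold the water channel aquaporin 4. Around amyloid plaques astrocytes become reactive, a state known for high Gfap and Vim, and the genes of resting duties do not all follow the same course in that state.

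Total counts ranged from 70548781 to 106235625 per mouse, so 1 read corresponds to at most 0.0149 CPM (reads scaled to one library size with TMM factors), and counting error was small beside the spread between mice. APP/PS1 mouse 16 stood apart: its summed level of 10 striatum genes was 2865 CPM against 251 to 465.1 CPM in the other 13 mice, and its summed level of 10 thalamus genes was 231.2 CPM against 461.7 to 802.9 CPM. Several results of the comparisons with APP/PS1 mice without CP2 are therefore given with and without it. Fold changes of Gja1, Gjb6 and Slc7a10 against NTG, and the correlations, are not given without this mouse alone. Yam1 and AY036118, which resemble ribosomal RNA, took 2.4% to 7.5% of the counts. Of the defining astrocyte genes none was at 0 in any mouse, but the tissue was a mixture of cells, and in bulk RNA fewer astrocytes and less RNA per astrocyte cannot be told apart.

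Levels were ordered per length, with the RPKM values of the authors. In NTG mice Glul was highest (268 ± 12.5 RPKM, SD, n = 4) and Slc1a2 second (193 ± 20). S100b, a calcium-binding protein, followed at 88.1 ± 31.8 RPKM, then Gja1 at 63.7 ± 1.97 and Slc1a3 at 51.1 ± 1.97. The lower places were taken by Aqp4 (33.5 ± 4.61 RPKM), Gjb6 (22.2 ± 0.635), Slc7a10 (15.9 ± 1.43), Aldh1l1 (11.6 ± 0.653) and the transcription factor Sox9 (6.59 ± 0.301). No neighbours in this order overlapped between the 4 NTG mice. In APP/PS1 mice the same order blurred: Slc1a3 and Gja1 both averaged 56.4 RPKM, and Aqp4 reached 50 ± 18.5 RPKM (SD, n = 5), with ranges that overlapped those of the genes above. In CP2-treated APP/PS1 mice Gja1 (58.2 ± 7.78 RPKM), Slc1a3 (49.9 ± 5.65) and Aqp4 (48.9 ± 8.09) also overlapped.

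The sequence before the start site is shown for the 3 genes of glutamate uptake and conversion, because the results turn on the different courses of these genes. RefSeq promoter windows (GRCm38.p6) were matched for 8 of the 10 genes, and Sox9 and Aqp4 had no entry. The 250 bases before the RefSeq start were read in the gene's direction, in lower case, with matches to 4 motifs in capitals: TTGGC (a nuclear factor I core), AACAAT (a SOX core), TTCNNNGAA (a STAT site) and TATAAA. Both strands were searched, so a match can appear as its reverse complement. The windows are chr2:102706188-102706437 (plus strand) for Slc1a2, chr15:8710808-8711057 (minus strand) for Slc1a3 and chr1:153899679-153899928 (plus strand) for Glul.
Slc1a2: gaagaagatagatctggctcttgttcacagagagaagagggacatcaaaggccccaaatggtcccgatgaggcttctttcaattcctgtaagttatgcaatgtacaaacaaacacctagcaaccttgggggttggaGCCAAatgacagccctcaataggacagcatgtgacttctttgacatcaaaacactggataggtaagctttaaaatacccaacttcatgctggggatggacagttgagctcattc
Slc1a3: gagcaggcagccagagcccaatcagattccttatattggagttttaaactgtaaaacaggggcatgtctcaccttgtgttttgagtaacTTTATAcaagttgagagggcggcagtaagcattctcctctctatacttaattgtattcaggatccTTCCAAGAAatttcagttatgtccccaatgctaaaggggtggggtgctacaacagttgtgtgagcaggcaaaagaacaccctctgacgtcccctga
Glul: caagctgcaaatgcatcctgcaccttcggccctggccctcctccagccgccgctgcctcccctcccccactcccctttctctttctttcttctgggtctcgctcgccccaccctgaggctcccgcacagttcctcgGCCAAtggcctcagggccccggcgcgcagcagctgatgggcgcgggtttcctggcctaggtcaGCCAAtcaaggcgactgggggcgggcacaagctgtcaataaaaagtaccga

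The windows differed in composition. That of Glul had a GC content of 64.8% and 15 CpG sites, against 44.8% and 1 CpG site for Slc1a2 and 44.8% and 2 CpG sites for Slc1a3, where the median over all 32851 windows was 52.4% and 6 sites. TTGGC was found once before Slc1a2 and at 2 places before Glul, and it was present in 3 of the 8 windows (Slc1a2, Glul and S100b) and in 41.5% of all windows. The STAT motif and TATAAA were found before Slc1a3 and before no other of the 8 genes, against 7.02% and 12.4% of all windows. AACAAT was in none of the 8 windows and in 9.42% of all. These matches describe letters and not occupied sites. The RefSeq start of Slc1a2 lies 47779 bases inside the gene as the deposited table bounds it (chromosome 2, 102658659 to 102790784, mm10), so this window is that of 1 of the possible start sites.

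The first comparison asked how the resting astrocyte genes of aged mice differ with the APP/PS1 genotype. Of the 10 genes, 1 passed the test, Slc1a2, and it fell. That is a share of 10% against 5.68% of all 16417 genes tested (1.34% lower and 4.34% higher). At an unadjusted p under 0.05 there were 5 of 10 genes, all 5 lower (Slc1a2, Glul, Slc7a10, Gja1 and Gjb6), against 18.7% of all genes, and 8.05% lower. Levels of 2 of the 10 (Glul and Gja1) did not overlap between the groups, against 10% of all genes. The median log2 fold change of the 10 genes was -0.08, against -0.0042 over all genes tested. Without mouse 16 these medians were -0.03 and -0.0077, and 3 of the 10 genes were called (Slc1a2 and Glul lower, Aqp4 higher), against 8.92% of all genes. At an unadjusted p under 0.05 there were then 4 lower and 1 higher, so the 5 lower genes rest in part on that mouse. With all mice the direction was split, with 5 genes higher and 5 lower.

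**Figure D1:**
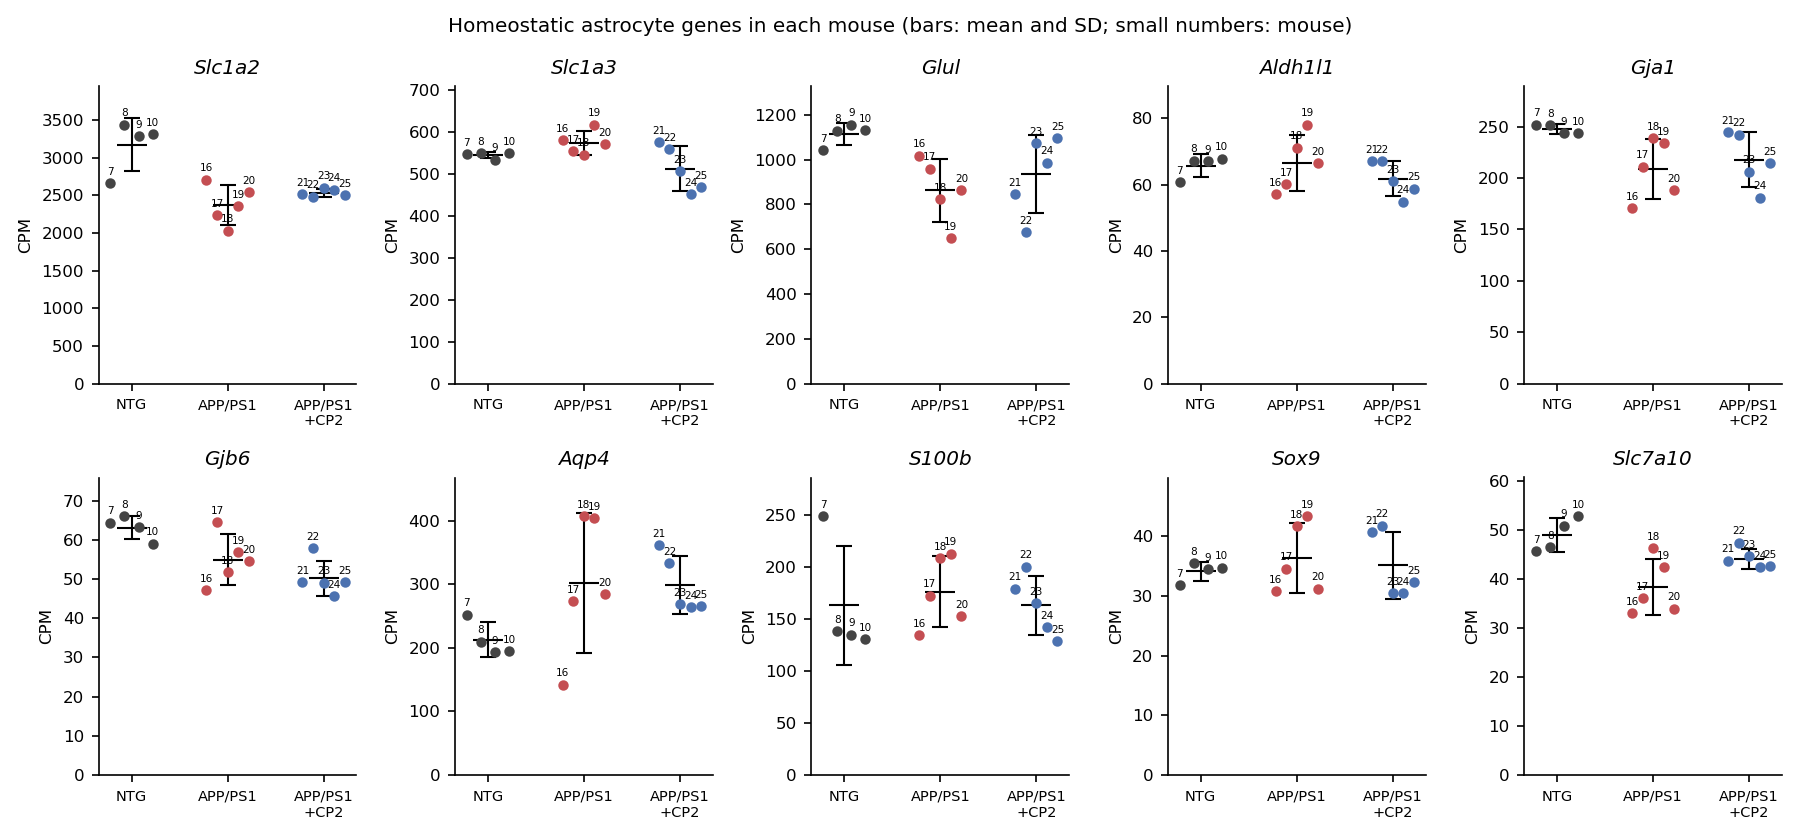
Level of each of the 10 genes in every mouse, in CPM on a linear axis from 0, by group (NTG n = 4, APP/PS1 n = 5, APP/PS1 with CP2 n = 5), with bars for the mean and SD and the mouse number beside each point. Slc1a2 is lower in both APP/PS1 groups than in NTG mice 8 to 10, and Glul, Gja1, Aqp4 and Sox9 show 2 CP2-treated mice (21 and 22) apart from the other 3.

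Slc1a2 encodes GLT-1, the main glutamate transporter of the forebrain. Its level was 2659, 3438, 3286 and 3310 CPM in NTG mice 7 to 10, and 2708, 2235, 2032, 2356 and 2545 CPM in APP/PS1 mice 16 to 20. NTG mouse 7 was low, below the highest APP/PS1 mouse, and the other 3 NTG mice lay above all 5. The log2 fold change was -0.41 (SE 0.102, edgeR quasi-likelihood test, adjusted p = 0.0442), or 0.752 of the NTG level. The call was close to the threshold. It held without mouse 7 (adjusted p = 0.0199) and without mouse 16 (adjusted p = 0.0179), and it was lost in each of the 7 other edgeR fits that left out 1 mouse (8, 9, 10, 17, 18, 19 or 20), where the adjusted p reached 0.142 and the log2 fold change stayed between -0.44 and -0.36.

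Slc1a3 encodes GLAST, the other glutamate transporter of astrocytes. It was measured at 547.8, 550.8, 534.3 and 550.4 CPM in NTG mice, and at 581, 554.3, 546.7, 617.9 and 572.2 CPM in APP/PS1 mice. The groups overlapped. The log2 fold change was 0.08, with a 95% interval from -0.035 to 0.198 (adjusted p = 0.463), so the interval did not reach a fall of the size seen for Slc1a2.

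Glul encodes glutamine synthetase, which turns the glutamate taken up into glutamine. NTG mice had 1043, 1130, 1156 and 1133 CPM, and APP/PS1 mice 1018, 960.5, 822.6, 650.2 and 865.3 CPM. All 5 APP/PS1 mice lay below all 4 NTG mice, with mouse 19 lowest. The log2 fold change of -0.36 (SE 0.109) did not pass the test (adjusted p = 0.0904, unadjusted p = 0.00743), but it did without mouse 16, where it was -0.43 (adjusted p = 0.0259). Of the 9 edgeR fits that left out 1 mouse, only that 1 passed, and the adjusted p reached 0.232.

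Slc7a10 encodes Asc-1, a transporter of small neutral amino acids such as serine and glycine. Values were 45.68, 46.45, 50.82 and 52.76 CPM in NTG mice and 33.07, 36.05, 46.29, 42.41 and 33.93 CPM in APP/PS1 mice. Only mouse 18 reached into the NTG range. The log2 fold change was -0.34 (SE 0.104, adjusted p = 0.0956), and without mouse 18 it was -0.42 (adjusted p = 0.035). Of the 9 edgeR fits that left out 1 mouse, only that 1 passed. Over these fits the adjusted p reached 0.228 and the log2 fold change ran from -0.42 to -0.29. Part of the exons of Slc7a10 (377 of 2111 bases in GENCODE M21) lies across those of Lrp3 on the other strand, and reads there were counted on both genes. Lrp3 itself had a log2 fold change of -0.04 (adjusted p = 0.894).

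Gja1 and Gjb6 encode connexin 43 and connexin 30, the subunits of astrocyte gap junctions. Gja1 was 251.7, 251.2, 243.4 and 243.8 CPM in NTG mice and 170.8, 211, 239, 233.6 and 188.3 CPM in APP/PS1 mice. The NTG mice were nearly alike, with a coefficient of variation of 1.83%, and all 5 APP/PS1 mice were below them. Gjb6 was 64.45, 66.04, 63.2 and 59.03 CPM in NTG mice and 47.13, 64.51, 51.8, 56.96 and 54.55 CPM in APP/PS1 mice. Mouse 17 lay inside the NTG range, and the other 4 below it. Neither passed the test: the log2 fold change was -0.24 (SE 0.0964, adjusted p = 0.213) for Gja1 and -0.19 (SE 0.084, adjusted p = 0.25) for Gjb6. With 1 mouse left out, an unadjusted edgeR p under 0.05 was kept in 4 of 9 fits for Gja1 and in 3 of 9 for Gjb6. The log2 fold change then ran from -0.29 to -0.17 for Gja1 and from -0.26 to -0.14 for Gjb6. Mouse 16 had the lowest APP/PS1 value of both genes.

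Aqp4 encodes the water channel of the endfeet. It went the other way, with 252.7, 209.7, 193.4 and 195.4 CPM in NTG mice and 142.5, 273.3, 407.3, 404.4 and 285 CPM in APP/PS1 mice. Mouse 16, the one rich in striatum genes, had the lowest value of all 14 mice, and the other 4 APP/PS1 mice were above every NTG mouse. With mouse 16 the log2 fold change was 0.52 (SE 0.264, adjusted p = 0.339). Without it the log2 fold change was 0.70 (adjusted p = 0.017), so Aqp4 was called only when that mouse was left out.

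Aldh1l1, a folate enzyme used to label astrocytes, Sox9, a transcription factor of astrocyte fate, and S100b showed smaller differences. Aldh1l1 spanned 60.7 to 67.9 CPM in NTG and 57.1 to 78.1 CPM in APP/PS1 mice (log2 fold change 0.03, 95% interval -0.178 to 0.234, adjusted p = 0.912). Sox9 spanned 31.8 to 35.4 CPM and 30.7 to 43.3 CPM (0.10, interval -0.149 to 0.345, adjusted p = 0.708). Both were highest in mouse 19. S100b was 249.1 CPM in NTG mouse 7 and 130.7 to 138.5 CPM in the other 3 NTG mice, against 134.6 to 213.2 CPM in APP/PS1 mice. The log2 fold change of S100b was 0.12 (SE 0.215, adjusted p = 0.826) and 0.40 (adjusted p = 0.199) without mouse 7, which also had the highest summed level of oligodendrocyte genes, 7874 CPM against 4877 to 7378 CPM in the other 13 mice. The part of that list in the S100b value was not tested.

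The tissue around these genes also differed between the groups. The summed level of 14 reactive astrocyte genes was 513 to 779.3 CPM in NTG and 1441 to 3495 CPM in APP/PS1 mice. All 11 genes tested were higher by value and 10 of them were called, led by Osmr, Gfap, Ggta1 and Vim. Gfap, the intermediate filament of reactive astrocytes, rose by 2.30 on the log2 scale (SE 0.254, adjusted p = 0.000649). The 12 microglia genes all rose, among them Cst7, Trem2 and Csf1r, with a median of 1.22, and their sum went from 453.1 to 477.3 CPM in NTG to 904.6 to 1353 CPM in APP/PS1 mice. Of the 10 hippocampus and dentate gyrus genes 1 was called lower, Tdo2 (-1.17, adjusted p = 0.0144), with a list median of -0.71. Without mouse 16 there were 5 called lower, with a median of -0.46. Thalamus genes (median -0.48, 0 of 10 called at an adjusted p under 0.05 and 2 lower at an unadjusted p under 0.05) and striatum genes (median 1.62, 0 of 10 called, 2 higher at an unadjusted p under 0.05) also differed in value, with the smallest p for Rora (-0.48, adjusted p = 0.0969) and Drd1a (2.15, adjusted p = 0.217). Without mouse 16 the thalamus median was -0.29, with 0 called and 4 lower at an unadjusted p under 0.05, and the striatum median was 0.03, with 1 gene that fell. The part of cell composition and dissection in the changes of the 10 genes was not tested.

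Lists of other cells moved less than the reactive astrocyte and microglia lists. Of 10 neuron genes 0 were called (1 lower at an unadjusted p under 0.05), and of 10 oligodendrocyte genes 1 was called higher (Cldn11, 0.46, adjusted p = 0.00366). Of 8 oligodendrocyte precursor genes 0 were called (1 higher at an unadjusted p under 0.05). Of 10 endothelium and mural cell genes 1 was called higher (Pecam1, 0.40, adjusted p = 0.00965). In that list 9 genes were higher by value, 4 of them at an unadjusted p under 0.05, with a median of 0.22. None of the 4 ependyma, 5 choroid plexus and 8 meninges genes tested was called by edgeR, with 1, 0 and 0 at an unadjusted p under 0.05. In the lists with no call the smallest p belonged to Nefl (neurons, -0.29, adjusted p = 0.226), Cspg4 (precursors, 0.20, adjusted p = 0.196), Rarres2 (ependyma, 0.36, adjusted p = 0.148), Otx2 (choroid plexus, -0.59, adjusted p = 0.516) and Col1a2 (meninges, 0.23, adjusted p = 0.449). Without mouse 16, 1 neuron gene fell and 2 endothelium and mural cell genes rose. Summed neuron genes ranged from 7038 to 8491 CPM in NTG and from 6650 to 8406 CPM in APP/PS1 mice.

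**Figure D2:**
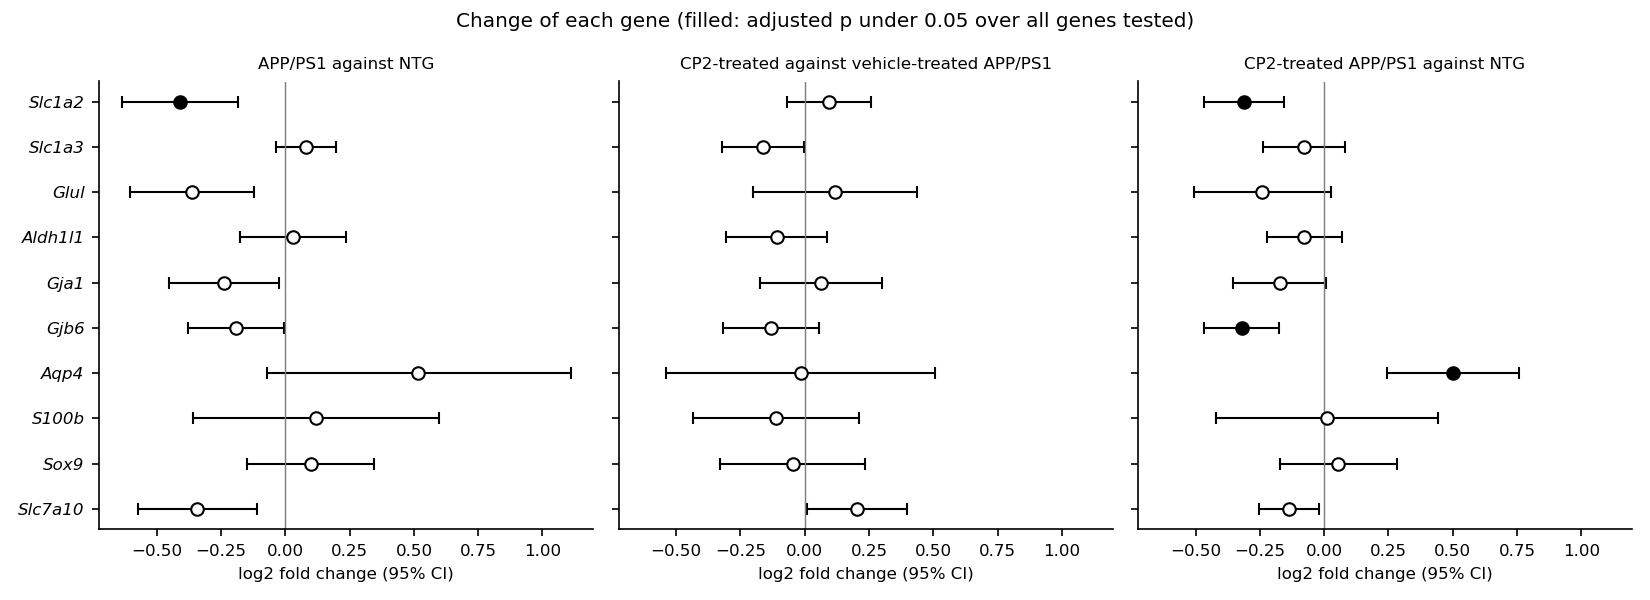
Log2 fold change of each gene with its 95% interval in the 3 comparisons, from edgeR, with filled points for an adjusted p under 0.05. Filled points are Slc1a2 on the left, none in the middle, and Slc1a2, Gjb6 and Aqp4 on the right.

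The second comparison asked whether CP2 changed these genes in APP/PS1 mice. None of the 10 genes passed edgeR's test, against 0.00609% of 16407 genes (1 gene), and DESeq2 and limma-voom called 0 of the 10 as well. At an unadjusted p under 0.05 there were 2 of 10, against 6.55% of all genes, and no gene of the 10 had groups that did not overlap, against 1.14%. The median log2 fold change of the 10 was -0.03, against -0.006 over all genes. Without mouse 16 these medians were -0.13 and -0.00055, with 0 of the 10 called and 1 (Gjb6, lower) at an unadjusted p under 0.05.

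The 2 genes with an unadjusted p under 0.05 were both transporters, and they went in opposite directions. Slc1a3 was 576.2, 559.6, 507.8, 452.8 and 468.7 CPM in CP2-treated mice 21 to 25, against 546.7 to 617.9 CPM with vehicle. Mice 21 and 22 lay within the vehicle range and mice 23 to 25 below it. The log2 fold change was -0.16 (SE 0.0725, adjusted p = 0.744). Slc7a10 was 43.68, 47.41, 44.61, 42.4 and 42.55 CPM with CP2, against 33.07 to 46.29 CPM with vehicle, a log2 fold change of 0.20 (SE 0.0886, adjusted p = 0.744). Without mouse 16 the unadjusted p was 0.0668 for Slc1a3 (-0.16) and 0.0909 for Slc7a10 (0.15).

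For the other 8 genes the intervals limit the size of a difference. Slc1a2 was 2512, 2485, 2602, 2577 and 2500 CPM with CP2, a narrow range inside that of the vehicle group, with a coefficient of variation of 2.02% against 11.1%. Its log2 fold change was 0.09 (95% interval -0.069 to 0.256). Glul was 847.4, 676.1, 1074, 986.9 and 1096 CPM, a log2 fold change of 0.12 (interval -0.203 to 0.437). Gja1 (0.06, interval -0.175 to 0.299), Gjb6 (-0.13, interval -0.318 to 0.056) and Sox9 (-0.05, interval -0.329 to 0.235) did not differ beyond the spread between mice. The same held for Aldh1l1 (-0.11, interval -0.306 to 0.088) and S100b (-0.11, interval -0.436 to 0.212). The widest interval was that of Aqp4, from -0.541 to 0.508 around a log2 fold change of -0.02.

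Mice of the CP2 group were not alike. Mice 21 and 22 had higher Gja1 (244.8 and 242.2 CPM against 180.8 to 214.4 CPM in mice 23 to 25), Aqp4 (362.2 and 333.2 against 263.8 to 269.5 CPM), Sox9 (40.67 and 41.73 against 30.45 to 32.27 CPM) and Aldh1l1 (67.04 and 67.19 against 54.89 to 61.03 CPM), and lower Glul. Their summed reactive astrocyte genes were 2725 and 2838 CPM, against 1682 to 1791 CPM in mice 23 to 25. The labels give nothing that separates these mice, and they were pooled in each test. In the same comparison reactive astrocyte genes had a median log2 fold change of -0.32, with 0 of 11 called and 2 lower at an unadjusted p under 0.05. Microglia genes had a median of -0.21, with 0 of 12 called and 1 lower at an unadjusted p under 0.05, and thalamus genes one of 0.57, with 0 of 10 called and 6 higher at an unadjusted p under 0.05. Without mouse 16 the medians were -0.57 for reactive astrocyte genes (0 of 13 called, 8 lower at an unadjusted p under 0.05), -0.25 for microglia genes (0 of 12 called, 4 lower) and 0.37 for thalamus genes (0 of 10 called, 6 higher). The striatum median was -1.42 with mouse 16 and 0.25 without it, so its direction turned, and the hippocampus median was 0.26 and 0.11. No gene of the other marker lists was called by edgeR either. The smallest p in each list belonged to Osmr (-0.52), C1qa (-0.46), Lef1 (thalamus, 0.59), Dsp (hippocampus, 0.61), Drd1a (striatum, -1.81), Cldn11 (-0.17) and Enkur (ependyma, -0.62), all with an adjusted p of 0.744. For Ly6c1 (endothelium, -0.21), Rbfox3 (neurons, -0.13), Cspg4 (precursors, -0.07), Otx2 (choroid plexus, 0.37) and Ptgds (meninges, -0.25) the adjusted p was 0.751 to 0.843.

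The third comparison set CP2-treated APP/PS1 mice against NTG mice, and it shares its mice with the first and the second. Of the 10 genes 3 passed the test, Slc1a2 and Gjb6 lower and Aqp4 higher, against 6.02% of 16416 genes (1.46% lower and 4.56% higher). At an unadjusted p under 0.05 there were 4, with Slc7a10 lower, against 20.2% of all genes. Levels of the same 3 genes did not overlap between the groups, against 9.61% of all genes. The median log2 fold change of the 10 was -0.11, against -0.0015 over all genes.

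Slc1a2 fell by 0.31 on the log2 scale (SE 0.0712, edgeR adjusted p = 0.0267), with all 5 treated mice below the lowest NTG mouse. In APP/PS1 mice without CP2 the difference from NTG was -0.41. Gjb6 was 49.24, 57.83, 49.08, 45.67 and 49.2 CPM in treated mice, below the NTG range of 59.03 to 66.04 CPM, and fell by 0.32 (SE 0.0663, adjusted p = 0.0172), where the group without CP2 had -0.19. Aqp4 rose by 0.50 (SE 0.116, adjusted p = 0.0289), with treated mice from 263.8 to 362.2 CPM and NTG mice from 193.4 to 252.7 CPM. Leaving out 1 mouse, the call for Gjb6 was lost without mouse 8 (adjusted p = 0.057), that for Aqp4 without mouse 8, 9, 10, 21 or 22 (adjusted p up to 0.0911), and that for Slc1a2 without mouse 8, 9, 10, 21, 22, 24 or 25 (adjusted p up to 0.0901).

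The 7 other genes did not pass. Slc7a10 was lower by value (-0.14, SE 0.0537, adjusted p = 0.177), as were Glul (-0.24, SE 0.121, adjusted p = 0.297) and Gja1 (-0.17, SE 0.0818, adjusted p = 0.266). Slc1a3 (-0.08), Aldh1l1 (-0.08), Sox9 (0.06) and S100b (0.01) had adjusted p values of 0.571 or more. All 11 reactive astrocyte genes tested were above NTG levels by value in the treated mice. Of these, 9 were called (Osmr, Gfap, Aspg and Ggta1 first), and the median was 1.48. Of 10 endothelium and mural cell genes 9 were higher by value and 6 were called higher (Rgs5, Flt1, Pecam1 and Slco1a4 first), with a median of 0.32. All 12 microglia genes were higher by value and 10 were called (Cst7, C1qb, Trem2 and C1qc first). Of 10 oligodendrocyte genes 1 was called higher (Cldn11), and 2 of the 10 hippocampus and dentate gyrus genes were called lower (Tdo2 and C1ql2). In lists with no call the smallest p belonged to Gad1 (neurons, -0.15, adjusted p = 0.0939), Zfhx3 (thalamus, 0.20), Gpr17 (precursors, 0.22), Col1a2 (meninges, 0.36), Enkur (ependyma, -0.40) and Otx2 (choroid plexus, -0.21), the last 5 with an adjusted p from 0.217 to 0.597.

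Ratios of counts within a mouse compare partner genes without any scaling between libraries. For 3 pairs and 3 comparisons 9 exact two-sided permutation tests of the difference in mean log2 ratio were run. The number of Slc1a2 reads per Slc1a3 read was 4.85, 6.24, 6.15 and 6.01 in NTG mice 7 to 10 and 4.66, 4.03, 3.72, 3.81 and 4.45 in APP/PS1 mice 16 to 20. No APP/PS1 mouse reached the NTG range. The difference in log2 ratio was -0.49, with an exact permutation p of 0.0159, the smallest that 126 groupings allow, and 0.143 after adjustment over the 9 tests. With CP2 the ratio was 4.36, 4.44, 5.12, 5.69 and 5.33 in mice 21 to 25. That was 0.27 above vehicle on the log2 scale (exact permutation p = 0.0476, adjusted p = 0.143) and -0.22 from NTG (exact permutation p = 0.111, adjusted p = 0.2).

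**Figure D3:**
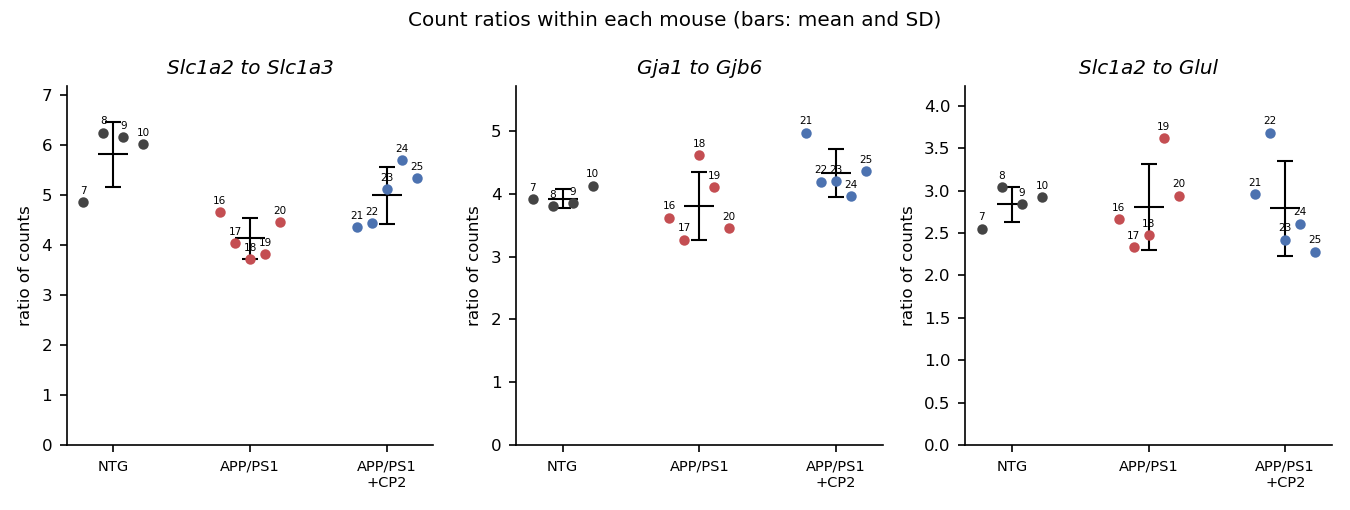
Ratio of counts for 3 gene pairs in every mouse, on linear axes from 0, with bars for the mean and SD of NTG (n = 4), APP/PS1 (n = 5) and CP2-treated APP/PS1 mice (n = 5). The Slc1a2 to Slc1a3 ratio averages 5.82 in NTG, 4.13 in APP/PS1 and 4.99 in CP2-treated mice, and the Slc1a2 to Glul ratio 2.84, 2.8 and 2.79.

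The ratio of Slc1a2 to Glul, uptake to conversion, did not separate the groups: 2.84 ± 0.209 in NTG, 2.8 ± 0.512 in APP/PS1 and 2.79 ± 0.557 in CP2-treated mice, with adjusted exact permutation p values of 0.929 in all 3 comparisons. Among APP/PS1 mice it ran from 2.33 to 3.62, so the mean hides a wide spread. The ratio of the connexins, Gja1 to Gjb6, was 3.92 ± 0.144, 3.81 ± 0.544 and 4.34 ± 0.384. The log2 ratio of CP2-treated mice was 0.19 above vehicle (exact permutation p = 0.111, adjusted p = 0.2) and 0.14 above NTG (exact permutation p = 0.0317, adjusted p = 0.143).

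The levels of the 10 genes varied together or apart among mice of 1 group. After subtraction of the group means, log2 CPM values were correlated over the 14 mice for all 45 pairs, with p values from 100000 permutations within groups. These relations were examined after the values were seen, and all points share the libraries and their scaling. Gja1 and Sox9 were the closest pair (Pearson r = 0.899, permutation p = 0.0015, adjusted p = 0.017; Spearman rho = 0.859, permutation p = 0.0052, adjusted p = 0.031), and r was 0.922 without the 2 mice farthest from the median of Gja1, 16 and 24. Aldh1l1 and Sox9 followed (r = 0.852, permutation p = 0.003, adjusted p = 0.022; rho = 0.886, permutation p = 0.0018, adjusted p = 0.016; r = 0.79 without mice 16 and 19). Positive pairs with an adjusted p under 0.05 numbered 9, and negative ones 6, of which 4 involved Glul.

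Glul ran against Sox9. The pair had r = -0.804 (permutation p = 0.0081, adjusted p = 0.035) and rho = -0.789 (permutation p = 0.011, adjusted p = 0.041), with r = -0.664 without mice 19 and 22. The 2 mice with the least Glul, 19 (650.2 CPM) and 22 (676.1 CPM), had the most Sox9, 43.31 and 41.73 CPM. Slc1a2 ran against Gja1, with r = -0.578 (permutation p = 0.0089, adjusted p = 0.035; rho = -0.692, permutation p = 0.0056, adjusted p = 0.031; r = -0.612 without mice 7 and 18). Its relations to Sox9 (r = -0.329, permutation p = 0.27, adjusted p = 0.32) and Aldh1l1 (r = -0.121, permutation p = 0.74, adjusted p = 0.76) did not pass.

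**Figure D4:**
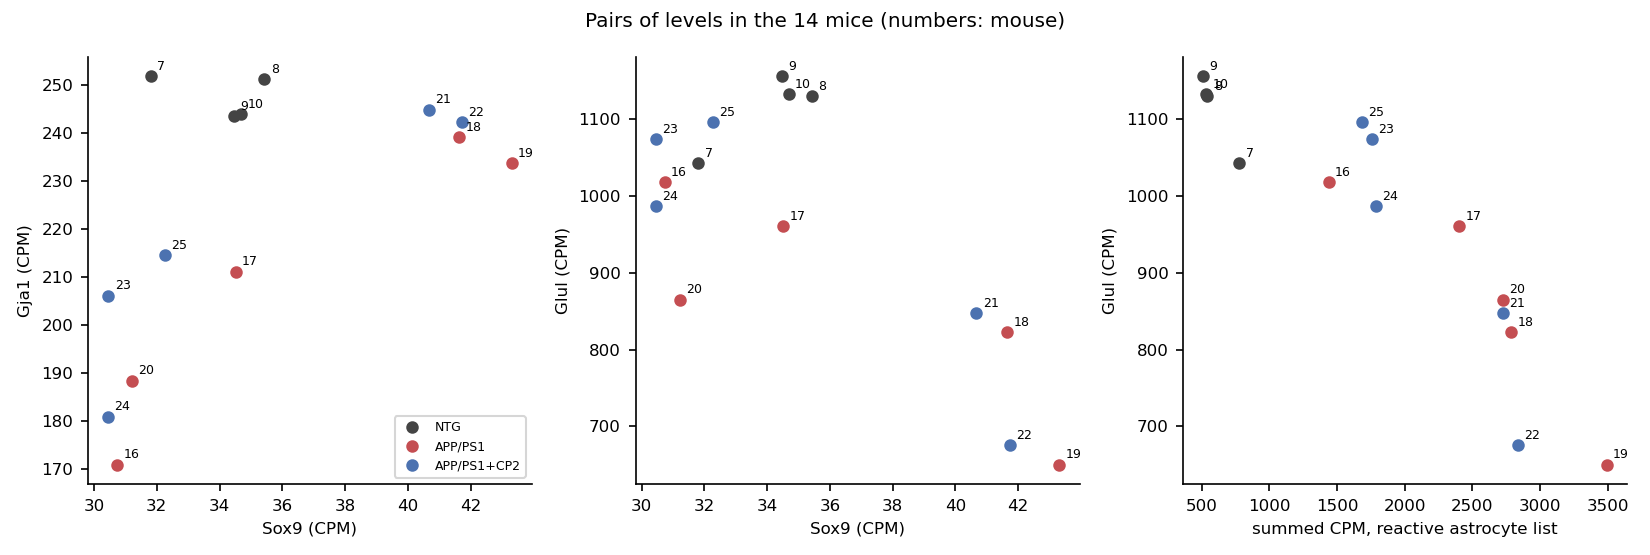
Levels in each of the 14 mice, in CPM on linear axes that do not start at 0, of Gja1 against Sox9, Glul against Sox9, and Glul against the summed level of 14 reactive astrocyte genes, coloured by group with the mouse number beside each point. Glul is lowest in mice 19 and 22, which have the highest Sox9 and the highest reactive astrocyte sums of their groups.

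The summed reactive astrocyte genes tracked the same axis. Gfap made up most of this unweighted sum, with a mean of 1860 CPM in APP/PS1 mice, where the sums ran from 1441 to 3495 CPM. Relations to the sum therefore mostly reflect Gfap, and the other genes of the list were not tested apart from it. Of the 10 genes, Aqp4 followed that sum most closely within groups (r = 0.902, permutation p = 0.00018, adjusted p over 10 relations = 0.0009; rho = 0.921, permutation p = 0.00062, adjusted p = 0.0021), and r was 0.936 without mice 16 and 18. Glul ran opposite (r = -0.855 and rho = -0.938, both with a permutation p of 1e-05, the smallest these permutations can give, adjusted p = 0.0001), with r = -0.863 without mice 19 and 22. Positive relations to the sum with an adjusted p under 0.05 were found for 5 genes (Aqp4, S100b, Gja1, Sox9 and Aldh1l1). Without the 2 mice farthest from each gene's median, r went from 0.817 to 0.798 for S100b and from 0.774 to 0.652 for Gja1. It went from 0.694 to 0.54 for Sox9 (without mice 19 and 22) and from 0.685 to 0.417 for Aldh1l1 (without mice 16 and 19). For Slc1a2 r was -0.588 (permutation p = 0.041, adjusted p = 0.059; rho = -0.516, permutation p = 0.044, adjusted p = 0.055; r = -0.556 without mice 7 and 18).

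Among all 16511 genes compared, those whose within-group pattern over the 14 mice was most like the mean of the 10 standardized genes were Pdlim5 (r = 0.959), Pdlim4 (r = 0.953), 1700084C01Rik (r = 0.952), Ly86 (r = 0.947) and Ctnnbip1 (r = 0.927). Pdlim5 and Pdlim4 encode PDZ and LIM domain proteins. Of the 10 genes themselves, Gja1 (r = 0.915 with the mean of the other 9), Sox9 (0.882) and Aldh1l1 (0.862) lay closest to the common pattern, and Glul (-0.853) and Slc1a2 (-0.527) opposed it. These values are descriptions over 14 mice that share libraries and scaling. Mouse 16 is among them, the values were not computed without it, and the part of dissection in them was not tested.

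The wider astrocyte programme was described with 60 genes in 6 lists. These lists were chosen with earlier results of these data known, so their shares are descriptions and not a test of the programme. In APP/PS1 against NTG mice 8 of the 60 were called lower and 1 higher, 13.3% and 1.67%, where all genes gave 1.34% lower and 4.34% higher. Without mouse 16 there were 12 called lower and 1 called higher, where 8.92% of all genes were called in either direction. In the second comparison 0 of the 60 were called by edgeR. At an unadjusted p under 0.05, 0 were higher and 5 lower, against 2.88% higher and 3.66% lower of all genes. Without mouse 16 there were 2 higher and 3 lower. In CP2-treated APP/PS1 against NTG mice 16 were called lower and 1 higher (26.7% and 1.67%), where all genes gave 1.46% lower and 4.56% higher.

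Receptors and secreted proteins made up the largest part of the genes that fell. Of these 12 genes 4 fell in APP/PS1 mice and the median log2 fold change was -0.17, with all 12 below 0 by value. Fgfr3, an FGF receptor of astrocytes, was at 169 ± 6.56 CPM in NTG (SD, n = 4) and at 122 ± 4.1 CPM in APP/PS1 mice (SD, n = 5), a log2 fold change of -0.46 (SE 0.0436, adjusted p = 0.000294). Gpc5, a glypican, went from 50.1 ± 4.14 to 28 ± 3.14 CPM (-0.83, adjusted p = 0.000512). Mfge8, a bridging molecule for phagocytosis, fell by 0.54 (adjusted p = 0.00465), and Ndrg2 by 0.30 (adjusted p = 0.033). In none of the 4 did the groups overlap. CP2-treated mice against NTG gave 5 genes of this list that fell, with Htra1, a secreted protease, at -0.48 (adjusted p = 0.000352), Mfge8 at -0.56, Gpc5 at -0.68 and Fgfr3 at -0.40.

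Ion transport genes went both ways. Of 8 genes, Kcnj16, an inward rectifier potassium channel, was at 33.7 ± 5.77 CPM in NTG (SD, n = 4) and fell to 18.5 ± 4.64 CPM in APP/PS1 mice (SD, n = 5), with a log2 fold change of -0.85 (SE 0.191, adjusted p = 0.0278), and Slc14a1, a urea transporter, rose from 20.7 ± 3.54 to 38.5 ± 11.3 CPM (0.91, SE 0.226, adjusted p = 0.0449). The median of the list was -0.18. In CP2-treated mice Slc14a1 was at 36.6 ± 5.47 CPM (0.84 above NTG, adjusted p = 0.00308), and Kcnj16 and Kcnk1 were lower than in NTG (-0.60 and -0.23, adjusted p = 0.0431 and 0.0128).

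The 12 genes of amino acid and GABA uptake and metabolism had a median log2 fold change of -0.13 in APP/PS1 mice. In CP2-treated mice against NTG the genes that fell included Grm3, a metabotropic glutamate receptor (-0.38, adjusted p = 0.00193), and Slc25a18, a mitochondrial glutamate carrier (-0.32, adjusted p = 0.041). Metabolism had 1 of 10 that fell, Etnppl, an enzyme that breaks down phosphoethanolamine (-0.65, SE 0.144, adjusted p = 0.026), with a median of -0.15. Against NTG the CP2-treated mice had 4, Cbs (-0.62, adjusted p = 0.000479), Prodh (-0.31, adjusted p = 0.0063), Acsbg1 (-0.31, adjusted p = 0.011) and Etnppl (-0.86, adjusted p = 0.0247).

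Among 10 transcription factors Lhx2 fell in APP/PS1 mice (-0.47, SE 0.108, adjusted p = 0.0326), and the median was -0.12. Without mouse 16, 3 transcription factors and 2 metabolism genes fell. CP2-treated mice against NTG had Nfix (-0.25, adjusted p = 0.0112) and Lhx2 (-0.30, adjusted p = 0.0393) lower. The 8 endfoot and junction partners, which hold aquaporin 4 and connexins in place, had 0 genes called by edgeR in all 3 comparisons. The smallest p in APP/PS1 against NTG was that of Dtna, dystrobrevin alpha (-0.14, adjusted p = 0.158), with 2 of the 8 at an unadjusted p under 0.05, and the median was -0.02. In CP2-treated mice against NTG it was that of Hepacam (-0.16, adjusted p = 0.0665).

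**Figure D5:**
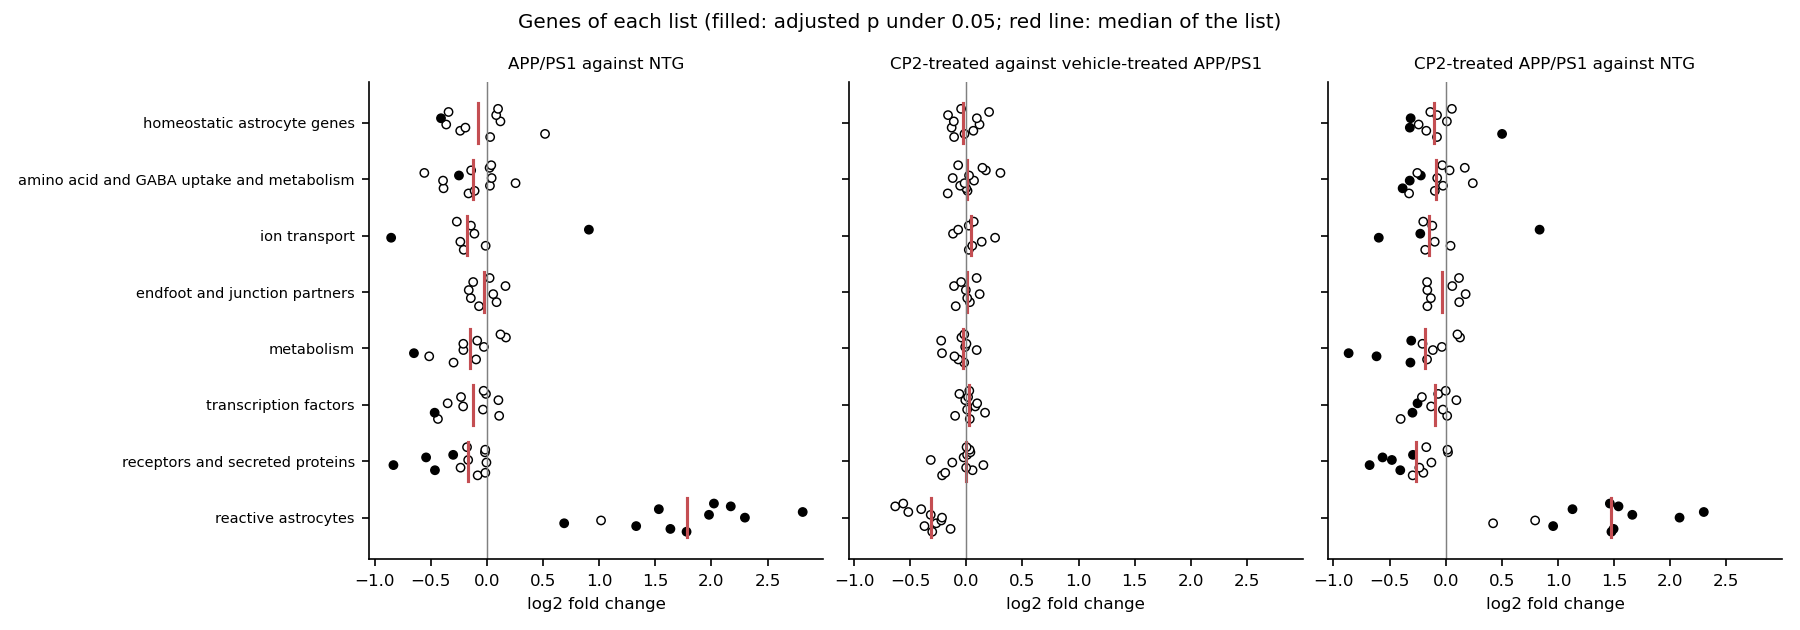
Log2 fold change of each gene tested in the 10 members, the 6 lists of other astrocyte genes and the reactive astrocyte list, for the 3 comparisons, with filled points for an adjusted p under 0.05 and a red line at the list's median. Filled points of the 6 other lists lie below 0 except for Slc14a1, those of the reactive list lie above 0, and the middle panel has none.

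In the second comparison the medians of the 6 lists lay between -0.03 and 0.04, and between -0.0956 and 0.0165 without mouse 16. The genes with the smallest p were Prodh (metabolism; -0.22, adjusted p = 0.744), Kcnk1 (ion transport; -0.12, adjusted p = 0.744), F3 (secreted proteins; -0.19, adjusted p = 0.744), Lhx2 (transcription factors; 0.17, adjusted p = 0.747), Tjp1 (junctions; 0.09, adjusted p = 0.749) and Slc38a3, a glutamine transporter (-0.12, adjusted p = 0.753).

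Other genes share exon bases with 4 of the 10 genes in GENCODE M21, and the authors counted a read on each gene it overlapped. Besides Lrp3, these are the antisense gene Gm13872 on Slc1a2 (189 bases, 5906 to 11162 counts per mouse, against at least 190419 for Slc1a2), Teddm2 and Mir8114 on Glul (116 and 93 bases) and Gm15756 and Gm45901 on Aldh1l1 (499 and 105 bases). The kit does not mark strand, so reads of these genes cannot be told apart where they overlap. Gm13872 (-0.53, adjusted p = 0.0157) and Teddm2 (-0.48, adjusted p = 0.00867) fell in APP/PS1 mice, where Slc1a2 passed the test and Glul did not.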

How the data were processed

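The authors prepared libraries from total RNA with the TruSeq RNA Library Prep Kit v2 and sequenced them with paired ends of 101 bases. They ran MAP-RSeq, aligned to mm10 with TopHat2 and counted reads on Ensembl genes with featureCounts, a read counting on each gene it overlapped, and deposited read counts without normalization for 43346 genes and RPKM values. The coding length in the file is the authors' gene length. The aligner's release and the strand setting are not given in the sources used here. RPKM values served only to order levels.

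Each comparison was fitted on its 2 groups with edgeR 4.0.16 (TMM factors, quasi-likelihood test, Benjamini-Hochberg adjustment over all genes tested, R 4.3.3). Genes were tested if all mice of 1 or both groups had a robust CPM above 1. Standard errors are those implied by the test statistic and intervals are 95%. Log2 CPM values used a prior count of 2. A call is an adjusted p under 0.05. Where genes of a marker or astrocyte list are counted as falling or rising, the count is of calls. Alternatives used DESeq2 1.42.0 and limma 3.58.1, and ratios, correlations and figures scipy 1.17.1, pandas 2.3.3 and matplotlib 3.10.9. The procedure was tested on simulated data. Groups and mouse numbers come from the labels. All 26 replicate pairs differed beyond sampling noise (lowest chi-square per degree of freedom 8.25). The members, lists and tests were chosen with earlier results of these data known. Named genes are the 10 members, the called genes of each list (at most the 4 with the smallest p per direction) or else its gene with the smallest p, and the 5 genes most like the members. Genes that share exons with a member, and Yam1 and AY036118, are outside this rule and were chosen after their values were seen. Some genes that the rule names are not reported here. Alternatives were other scaling factors, filters, tests, samples in the fit, a ribosomal RNA-like covariate and each mouse left out.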

Additional observations from a re-analysis of the deposited data

Results flagged for a closer look

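Dixon's criterion for a single distant mouse was applied to 39 combinations of a gene or ratio with a group, and 3 passed, all in NTG mouse 7. Chance alone passes about 1 in 20 groups. S100b was 249 CPM in this mouse, and the nearest other NTG mouse had 138 CPM (gap over range 0.934). Aldh1l1 was 60.7 CPM, where the next lowest NTG mouse had 67.2 CPM (0.903). The ratio of Slc1a2 to Slc1a3 counts was 4.85, where the next lowest was 6.01 (0.835). Mouse 7 also had the highest summed reactive astrocyte genes of the NTG group, 779.3 CPM against 513 to 544 CPM, and the highest summed oligodendrocyte genes of the 14 mice, 7874 CPM. The part of these lists in its values was not tested.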

How the results depend on the processing

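No paired analysis was possible because the groups share no mouse numbers. In APP/PS1 against NTG mice 1 of the 10 genes was called. The count was 3 with DESeq2, 2 with all 3 groups in one fit and with limma-voom, 0 without a filter on low counts, with at least 10 counts in every mouse and with the ribosomal RNA-like share as a covariate (chosen after seeing the data), and 0 to 3 when 1 mouse was left out. Genes at an unadjusted p under 0.05 numbered 3 with that covariate, against 5, and 3 to 5 with 1 mouse left out. In the CP2 comparison 0 were called in every fit. Genes at an unadjusted p under 0.05 numbered 1 with upper-quartile factors and 0 with the covariate, against 2, and 0 to 2 with 1 mouse left out. In CP2-treated APP/PS1 against NTG mice 3 were called, 1 with all 3 groups in one fit (2 at an unadjusted p under 0.05) and 0 to 3 with 1 mouse left out (3 to 5 at an unadjusted p under 0.05). Over all genes, calls in the 3 comparisons rose with DESeq2 from 932, 1 and 989 to 1667, 23 and 1670. Leaving out 1 mouse gave 578 to 1474 in the first and 572 to 1123 in the third. The first became 1563 with limma-voom, and the second 0 with all 3 groups in one fit and 2 with the covariate.

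Direction was kept by Slc1a2, Slc1a3, Glul, Gja1, Gjb6, Aqp4 and Slc7a10 against NTG in both comparisons, under each alternative. With the covariate S100b in CP2-treated against NTG mice was -0.0083. With 1 mouse left out, signs turned for Aldh1l1 in APP/PS1 against NTG mice (-0.0424 to 0.0799), for S100b (-0.10 to 0.29) and Sox9 (-0.0145 to 0.105) in CP2-treated against NTG mice, and for Aqp4 (-0.19 to 0.12), Gja1 (-0.00025 to 0.12) and Sox9 (-0.116 to 0.0285) with CP2. The log2 difference of the Slc1a2 to Slc1a3 ratio with CP2 was 0.22 to 0.32 with 1 mouse left out, and the difference in mean rank was 3.4 (exact permutation p = 0.0952). From NTG it was -0.57 to -0.45 in APP/PS1 and -0.31 to -0.17 in CP2-treated mice. The Gja1 to Gjb6 ratio ran from -0.12 to 0.00077, from 0.14 to 0.26 and from 0.0902 to 0.172 in the 3 comparisons, and Slc1a2 to Glul from -0.13 to 0.0301, from -0.115 to 0.0863 and from -0.148 to 0.0241. The causes were not tested. Counting error was small for these genes. For the ratios, 4 mice against 5 allow no exact p below 0.0159.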
